A study of Mus musculus with 4 samples.

Results

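let-7g-5p, let-7i-5p and let-7j are 3 members of the let-7 family of microRNAs (miRNAs), and they were measured by small RNA sequencing in the developing mouse telencephalon. The members were found by name in the count tables, as the lines named mmu-let-7g-5p, mmu-let-7i-5p and mmu-let-7j. They are 3 of 1059 mature miRNAs listed there and 3 of 274 that had enough counts to be tested, and each had a single line in the tables. All 3 were lower in both Rx-Dicer mutant libraries than in both control libraries, as were 24.5% of the 274. Relative to the other listed miRNAs, the difference was 2.37-fold for let-7g-5p, 3.41-fold for let-7i-5p and 2.68-fold for let-7j. The difference passed the test for let-7g-5p and let-7i-5p and did not pass for let-7j. Of the 274, 2.55% passed as lower.

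The tissue was the rostral-most telencephalic primordium of E11.5 embryos. Mutants carried RxCre and DicerF/F, that is, the Rx3-Cre transgene together with floxed alleles of Dicer (Dicer1tm1Bdh/J). Controls were labelled WT, and the extraction protocol gives them as DicerF/F, so the floxed alleles without Cre would be shared by both groups. The Rx3-Cre line and wild-type mice were kept in a CD1 background and the floxed Dicer mice in C57BL/6, and 2 libraries were made for each group. As a model this is limited to the cells where the Rx driver has been active, which are mostly rostral and ventral, so the dissected piece can hold cells that kept Dicer. Fewer cells of a type and less of a miRNA per cell cannot be told apart in such bulk RNA.

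miRNAs are cut from hairpin precursors in two-step processing, first by Drosha in the nucleus and then by Dicer in the cytoplasm, and the mature strand is then loaded into an Argonaute protein. The loaded strand pairs with target mRNAs mostly through its seed, a short stretch near the 5′ end, and lowers their translation and stability. let-7 miRNAs are known to accumulate as progenitors leave the early embryonic state and to repress genes of growth and proliferation, and the RNA-binding protein Lin28 holds back the processing of their precursors. Mature miRNAs that were made before Dicer was lost can persist for some time.

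The mature sequences show how alike the 3 miRNAs are, and therefore where reads could be assigned to more than 1 of them. They are given 5′ to 3′ from RefSeq (GRCm38.p6), with the seed, bases 2 to 8, in capitals.
let-7g-5p: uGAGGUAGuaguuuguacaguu
let-7i-5p: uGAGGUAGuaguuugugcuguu
let-7j: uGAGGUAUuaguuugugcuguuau
Positions are counted from 1 at the 5′ end. let-7g-5p and let-7i-5p are both 22 bases long and differ by A17G and A19U, with let-7g-5p as the reference. let-7j is 24 bases long, and over the first 22 bases it differs from let-7i-5p only by G8U, with 2 further bases at its 3′ end. G8U lies in the seed, so let-7j does not share the seed of the other two. The seed GAGGUAG of let-7g-5p and let-7i-5p was found in 11 of 1679 mature mouse miRNAs, 9 of which were tested here. The seed GAGGUAU of let-7j was found in 2 of 1679, the other being miR-202-3p, which was not among the miRNAs tested.

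The 3 genes lie on different chromosomes. Mirlet7g lies at chr9:106178840-106178927 on the plus strand (GRCm38.p6), in intron 2 of the coding transcript of Wdr82, which is read from the same strand and encodes a subunit of a histone methyltransferase complex. Mirlet7i lies at chr10:122985640-122985724 on the minus strand. It overlaps D630033A02Rik, a transcribed processed pseudogene on the same strand, and falls within the exon of its 1-exon transcript and within intron 1 of its 2-exon transcript. Mir7j, the gene of let-7j, lies at chr3:140028249-140028370 on the plus strand between genes, 88284 bases from the nearest annotated gene, the pseudogene Gm4863, and 317949 bases from the nearest coding gene, Stpg2. The mRNA of these neighbours was not analysed here.

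Library depth was uneven, with 651031 and 516517 counts on mature miRNAs in Rx-Dicer libraries 1 and 2, and 1299067 and 1133553 in control libraries 1 and 2. Counts were scaled with edgeR's TMM factors and are given as CPM of the scaled library (scaled CPM). A read of this kind covers a mature miRNA once, so no length scaling was applied. The brain label was checked with miR-9-5p, a miRNA of neural progenitors, which took 28.2 to 42.6% of each library. The 3 muscle markers, miR-1a-1-5p, miR-133a-5p and miR-206-5p, summed to at most 1.31 scaled CPM. They are 5p arms, and the 3p arms of these miRNAs had no line, so their low sum does not bear on muscle content. Most of the listed miRNAs were likewise 5p arms or had no arm in the name, and the 3p arms of many had no line. Library totals, shares of all counts and ranks therefore refer to the listed miRNAs only, not to all miRNAs in the tissue. The fold changes of all 274 tested miRNAs had a median of 0.04 on the log2 scale. TMM scaling assumes that most miRNAs do not change, so this median was set largely by the scaling. All fold changes are therefore relative to the other listed miRNAs. A loss shared by most miRNAs would be removed by the scaling and was not tested.

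let-7g-5p, the member hosted by Wdr82, had 3924 and 4154 scaled CPM in Rx-Dicer libraries 1 and 2, and 9989 and 9148 in control libraries 1 and 2. The groups did not overlap, and the lowest control was 2.20 times the highest mutant. Mutants averaged 4039 ± 163 and controls 9569 ± 595 (SD, n = 2 each). The log2 fold change was −1.24 with an SE of 0.24 and a 95% interval from −1.81 to −0.68, and its adjusted p was 0.0472 by edgeR's quasi-likelihood test (Benjamini-Hochberg, over all 274 miRNAs). The raw counts were 2985 and 2436 in mutants and 12020 and 8438 in controls. This call lay close to the threshold of 0.05. It was lost when any 1 of the 4 libraries was left out, with an adjusted p from 0.115 to 0.519 and log2 fold changes from −1.31 to −1.14.

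let-7i-5p had the largest fall of the 3. Its scaled CPM were 3035 and 3313 in Rx-Dicer libraries 1 and 2, and 11563 and 10054 in control libraries 1 and 2. Here too the groups were apart, with the lowest control at 3.03 times the highest mutant. Mutants averaged 3174 ± 197 and controls 10808 ± 1068 (SD, n = 2 each). The log2 fold change was −1.77, with an SE of 0.25 and a 95% interval from −2.36 to −1.18, and the adjusted p was 0.0188 by edgeR's quasi-likelihood test. The raw counts were 2309 and 1943 in mutants and 13914 and 9273 in controls. With 1 library left out the log2 fold change lay between −1.87 and −1.63, and the adjusted p rose to between 0.0639 and 0.249.

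let-7j was the scarce member, with raw counts of 64 and 67 in Rx-Dicer libraries 1 and 2, and 292 and 265 in control libraries 1 and 2. After scaling these were 84.1 and 114 CPM in mutants and 243 and 287 CPM in controls. The groups again did not overlap, and the lowest control was 2.12 times the highest mutant. The means were 99.2 ± 21.3 and 265 ± 31.6 scaled CPM (SD, n = 2 each). The log2 fold change was −1.42, with an SE of 0.31 and a 95% interval from −2.14 to −0.70. The adjusted p of let-7j was 0.0718 by edgeR's quasi-likelihood test, so it missed the threshold, although the interval around its fold change overlapped those of the other two. The share of all counts on let-7j was 0.00983% (95% Wilson interval 0.00770 to 0.0126) and 0.0130% (0.0102 to 0.0165) in mutants, and 0.0225% (0.0200 to 0.0252) and 0.0234% (0.0207 to 0.0264) in controls. These intervals cover counting error only, and they separated the groups.

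**Figure D1:**
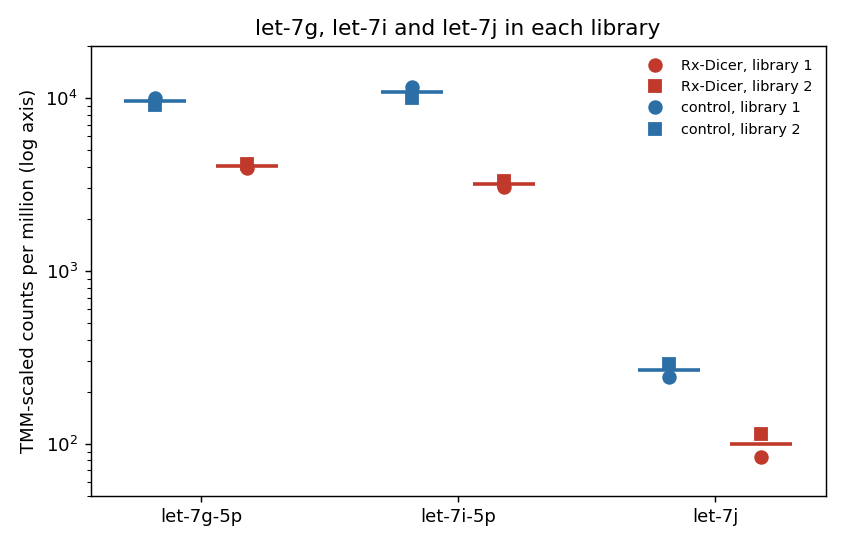
TMM-scaled CPM on a log axis for let-7g-5p, let-7i-5p and let-7j, with 1 point for each library (blue, control; red, Rx-Dicer; circles, library 1; squares, library 2) and bars at the group means. For each of the 3 miRNAs both red points lie under both blue points, and let-7j lies far under the other two.

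Of the 3 members, 2 passed the test as lower, where 2.55% of all tested miRNAs did so (7 of 274). All 3 were lower in both mutant libraries without overlap, which held for 24.5% of the tested miRNAs, and none of the 3 was higher in both, which held for 17.9%. All 3 also had an unadjusted p under 0.05 as lower by edgeR's quasi-likelihood test (0.00116 for let-7g-5p, 0.00016 for let-7i-5p and 0.0021 for let-7j), as did 8.39% of those tested. None of the 274 passed as higher by edgeR's quasi-likelihood test (0 at an adjusted p under 0.05, 3 at an unadjusted p under 0.05) or by DESeq2's Wald test (0). By DESeq2's Wald test all 3 members passed as lower, with 11 of 274 miRNAs (4.01%) called lower in all. The median log2 fold change of the 3 was −1.42. Ordered from the lowest fold change, let-7i-5p ranked 4, let-7j ranked 10 and let-7g-5p ranked 12 among the 274.

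**Figure D2:**
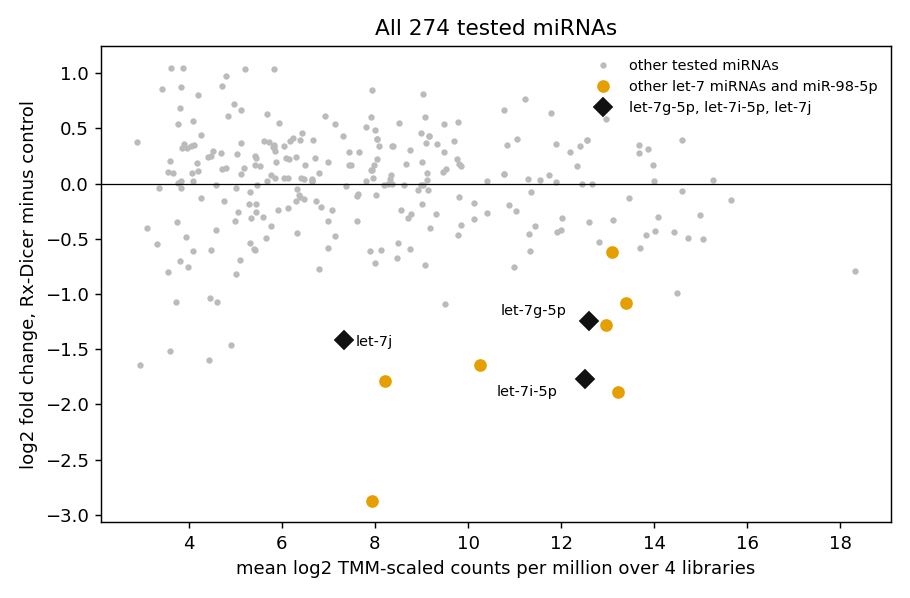
Log2 fold change (Rx-Dicer minus control) against mean log2 scaled CPM for the 274 tested miRNAs, 1 point each (black diamonds, let-7g-5p, let-7i-5p and let-7j; orange circles, the other 6 let-7 miRNAs tested and miR-98-5p; grey, all others). The 3 diamonds lie between −1.77 and −1.24, and let-7j stands at a much lower level than the other two. The median of all points is 0.04, which was set largely by the TMM scaling.

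let-7i-5p and let-7g-5p changed order between the groups. In the controls let-7i-5p ranked 25 and let-7g-5p ranked 27 by mean level among the 274 miRNAs, and in the mutants let-7g-5p ranked 39 and let-7i-5p ranked 46. let-7j ranked 120 in controls and 157 in mutants. Counted within each library, there were 115.8 and 109.9 counts of let-7i-5p for every 100 of let-7g-5p in control libraries 1 and 2, against 77.4 and 79.8 in Rx-Dicer libraries 1 and 2. The exact binomial intervals were 113.0 to 118.6 and 106.7 to 113.2 in controls, and 73.2 to 81.7 and 75.1 to 84.7 in mutants, so within each library the difference between the 2 miRNAs was beyond counting error. The ratio needs no scaling between libraries. On the log2 scale mutants averaged −0.35 ± 0.031 and controls 0.17 ± 0.053 (SD, n = 2 each), which is a difference of −0.52. An exact permutation test gave p = 0.333 (two-sided), the smallest that 2 libraries against 2 allow, and 0.667 after adjustment over the 3 ratios. The difference was many times the spread between replicates, but the exact permutation test cannot bring it under 0.05 with 2 libraries a group, and it was noticed in these same libraries.

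The other two ratios overlapped between the groups. let-7j made 2.77 and 3.45 counts per 100 of let-7i-5p in mutants, and 2.10 and 2.86 in controls, a log2 difference of 0.34. For every 100 counts of let-7g-5p there were 2.14 and 2.75 of let-7j in mutants and 2.43 and 3.14 in controls, a log2 difference of −0.19. The exact permutation p was 0.667 for each. This test cannot go under 0.333 here, so it does not show that let-7j changed like let-7g-5p or let-7i-5p.

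**Figure D3:**
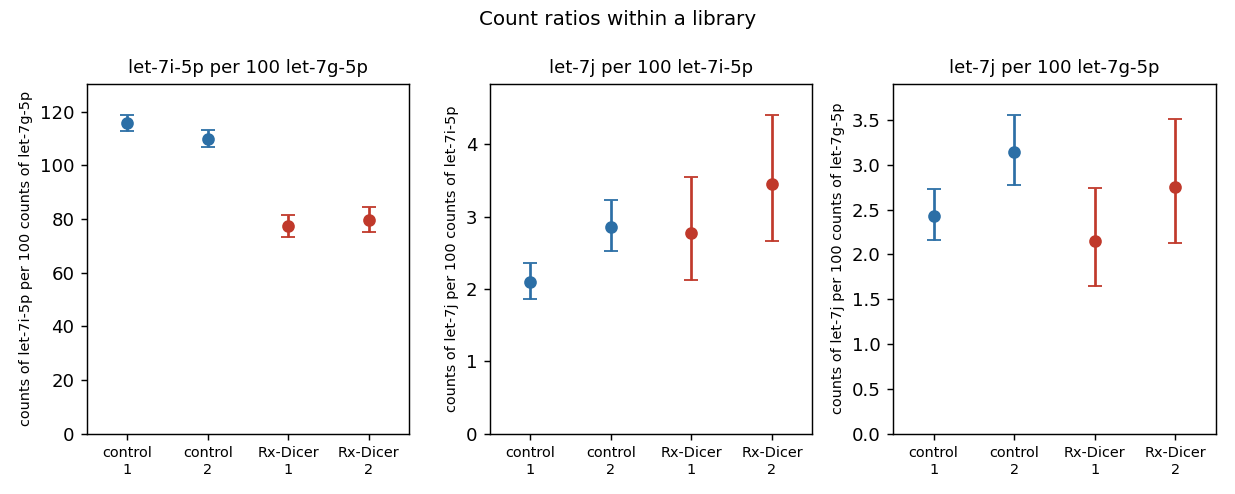
Counts of one miRNA per 100 counts of another in each library (vertical axes start at 0; bars, 95% exact binomial intervals for counting error; blue, control; red, Rx-Dicer). let-7i-5p stands above 100 per 100 let-7g-5p in both controls and under 100 in both mutants, whereas the 2 ratios with let-7j overlap between the groups.

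Reads of such similar miRNAs can be counted on more than 1 of them, and the mismatch settings of the counting step are not given in the sources used here. let-7j differs from let-7i-5p by a single base over 22, and its counts were 2.10 to 3.45% of those of let-7i-5p. A read of let-7i-5p with 1 error at base 8 would have the first 22 bases of let-7j, and how many such reads there were was not tested, because reads were not analysed here. When the counts of let-7j were added to those of let-7i-5p, the merged line had a log2 fold change of −1.75. Its adjusted p was 0.0182 by edgeR's quasi-likelihood test. In the same fit let-7g-5p kept a log2 fold change of −1.23 and an adjusted p of 0.0497. let-7g-5p and let-7f-5p differ by U12A and C18U, as few bases as separate let-7g-5p from let-7i-5p.

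Replicates lay close together for let-7g-5p and let-7i-5p. The coefficient of variation of let-7g-5p was 4.03% in mutants and 6.22% in controls, and that of let-7i-5p was 6.19% and 9.88%. The 7 other family members tested ranged from 10.2 to 44.2% in controls, so let-7g-5p and let-7i-5p had the lowest control variation among the 10 tested. In the mutants let-7a-5p (1.19%), let-7f-5p (1.32%) and miR-98-5p (3.95%) varied less than either. let-7j varied by 21.5% in mutants and 11.9% in controls. let-7j was also the only one of the 10 that was lower in control library 1 than in control library 2, at a ratio of 0.845, where let-7g-5p had 1.09, let-7i-5p had 1.15 and the highest, let-7b-5p, had 1.91. As a share of all counts the control intervals of let-7j overlapped.

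Within the family let-7i-5p had a lower share in the mutants, as did let-7b-5p, let-7c-5p, let-7d-5p and miR-98-5p. The shares of let-7g-5p, let-7j and let-7f-5p overlapped between the groups, and those of let-7a-5p and let-7e-5p were higher in the mutants. let-7g-5p made up 12.1 and 12.3% of the counts of the family in mutants and 10.6 and 13.1% in controls, where the family means the 3 members together with let-7a to let-7f, let-7k and miR-98. let-7i-5p made up 9.36 and 9.78% in mutants and 12.2 and 14.4% in controls. let-7j made up 0.259 and 0.337% in mutants and 0.257 and 0.410% in controls. The 3 together made up 21.7 and 22.4% in mutants and 23.1 and 27.8% in controls. The whole family took 3.79 and 3.84% of all counts in mutants and 8.75 and 5.70% in controls.

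Of the other 8 family members, 7 were tested, and let-7k was under the count minimum with 0, 0, 1 and 2 counts in the 4 libraries (Rx-Dicer 1 and 2, control 1 and 2). All 7 were lower in both mutants without overlap, as were 24.5% of the 274 tested miRNAs. Of the 7, 5 passed the test as lower, against 2.55% of the 274. The log2 fold changes of the 7 ranged from −2.87 for let-7b-5p to −0.62 for let-7e-5p, with a median of −1.64 beside −1.42 for the 3 members. let-7i-5p thus lay near miR-98-5p, at −1.79, and let-7g-5p lay near let-7f-5p, at −1.28. let-7a-5p at −1.08 and let-7e-5p at −0.62 did not pass, with adjusted p of 0.105 and 0.497 by edgeR's quasi-likelihood test.

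**Figure D4:**
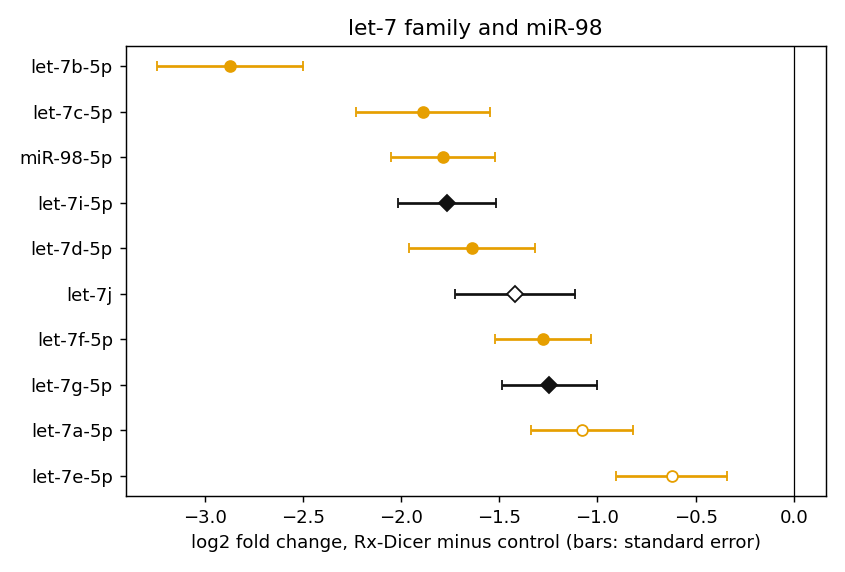
Log2 fold change (Rx-Dicer minus control) with its standard error for the 10 tested members of the let-7 family and miR-98 (diamonds, let-7g-5p, let-7i-5p and let-7j; circles, the others; filled, adjusted p under 0.05). All 10 lie under 0, and let-7j, let-7a-5p and let-7e-5p have open symbols.

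Of the 5 miRNAs outside the 3 members with the most similar profile over the 4 libraries, 2 were of this family for let-7g-5p and 4 for let-7i-5p. Likeness was the Euclidean distance between log2 scaled CPM, each centred on its own mean, and the 271 tested miRNAs outside the 3 members were compared with each of let-7g-5p and let-7i-5p. let-7f-5p was nearest to let-7g-5p at a distance of 0.0756, followed by let-7a-5p at 0.279, miR-139-5p at 0.315, miR-99a-5p at 0.441 and miR-149-5p at 0.521. let-7j lay at 0.410 from let-7g-5p. miR-98-5p was nearest to let-7i-5p at 0.118, followed by let-7d-5p at 0.411, let-7f-5p at 0.496, let-7c-5p at 0.549 and miR-3078-5p at 0.550. let-7i-5p and let-7g-5p were 0.526 apart, farther than either was from its nearest family member. These distances rest on 4 libraries that share depth and scaling, and they are a description without a test. miR-3078-5p had only 2 to 17 counts per library.

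By level in the controls, let-7i-5p stood next to let-7e-5p (10946 ± 2534 scaled CPM) above it and miR-181d-5p (9989 ± 2264) under it, and the ranges of both overlapped its own. let-7g-5p stood under miR-181d-5p, whose range overlapped, and over miR-30c-5p (8629 ± 271), whose range did not. let-7j stood between miR-449a-5p (270.1 ± 75.3) and miR-145a-5p (258 ± 154), and both overlapped it (SD, n = 2 controls for each).

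The 3 annotated precursors differ in predicted folding. How well Drosha and Dicer recognise them was not tested. The hairpin of let-7g has a predicted folding energy of −40.2 kcal/mol over 88 bases, and that of let-7i has −42.2 kcal/mol over 85 bases. The hairpin of let-7j was predicted at only −24.6 kcal/mol over 122 bases. Per 100 bases this is −45.7 for let-7g, −49.6 for let-7i and −20.2 for let-7j. The median over 1005 mouse hairpins from RefSeq was −40.6, and the hairpin of let-7j folds more weakly per base than 99.1% of them. For let-7k, annotated at 110 bases, this was 99.3%. The mature strand starts at base 33 of the let-7j hairpin, at base 7 for let-7g and at base 6 for let-7i, so the sequences folded were not alike in extent. In these predictions 20 of the 22 bases of let-7g-5p and of let-7i-5p are paired, against 17 of the 24 bases of let-7j. The letters GGAG, which Lin28 is known to bind in let-7 precursors, were sought on the transcribed strand alone, since a precursor is single RNA. They begin at base 56 of the let-7g hairpin and at base 54 of the let-7i hairpin, in each case between the 5p and the 3p arm, and they occur 2 times in the let-7j hairpin, first at base 4. The same letters are in 44.5% of the 1005 hairpins, and a match is not a binding site.

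The differing seeds change which 7 bases of a target make a full seed match. This can be shown in Irs2, an adaptor of insulin signalling. The study treats its mRNA as a direct let-7 target and reports that Irs2 protein rose when let-7 was blocked. The 7 bases CTACCTC that pair with the seed of let-7g-5p and let-7i-5p occur at 2 places in its transcript of 6323 bases (GENCODE M21, minus strand), and the 7 bases ATACCTC that pair with the seed of let-7j occur at 0. The windows of 22 bases are given with the seed match in capitals.
Irs2, coding sequence, exon 1, chr8:11006153-11006174: ctccccaacggggaCTACCTCa
Irs2, 3′ UTR, exon 2, chr8:10986528-10986549: aaactaccacagtcCTACCTCa
At the 3′ UTR window, read without gaps, let-7g-5p and let-7i-5p each have 14 Watson-Crick pairs and let-7j has 13, and at the coding window they have 11, 12 and 11. At each window let-7j keeps 6 of the 7 seed pairs and lacks only the seed pair at base 8. Irs2 mRNA was not analysed here, so these matches are a description of sequence.

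The nearest miRNA gene to any of the members, and the only one within 100 kb, was Mir135a-1, 24626 bases from Mirlet7g. miR-135a-5p had 1593 and 466 scaled CPM in Rx-Dicer libraries 1 and 2, and 786 and 978 in control libraries 1 and 2. Its groups overlapped, with a log2 fold change of 0.23 and an adjusted p of 0.929 by edgeR's quasi-likelihood test. miR-135a-5p is also made from a second gene on another chromosome, so its level is not that of Mir135a-1 alone.

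Markers of other cell types moved with the groups in part. Their lists were described by the summed scaled CPM of their members, none of which passed the test. Apart from miR-451a, all markers used are 5p arms. The 3p arms of miR-124, miR-200c and miR-203, among others, had no line, so low sums or counts of 0 need not reflect cell content. The 7 brain markers summed to 258320 and 270298 in mutants and to 359648 and 542460 in controls, most of it miR-9-5p. miR-124-5p, miR-219a-5p and miR-7a-5p were also lower in both mutants, while miR-128-1-5p, miR-137-5p and miR-218-5p overlapped between the groups. The sum of the 3 red blood cell markers was higher in both mutants, at 7595 and 8504 against 5737 and 6362, most of it miR-486a-5p, while miR-144-5p had 18.4 and 35.8 in mutants and 19.1 and 41.2 in controls. The sum of the 5 mesenchyme markers was also higher in both mutants, at 11917 and 11348 against 4443 and 11072, most of it miR-199a-5p, while miR-214-5p, miR-143-5p and miR-145a-5p overlapped between the groups. The white blood cell sums were 471 to 492 in mutants and 475 to 573 in controls, the endothelium values 244 to 431 and 253 to 403, and the liver values 10.5 to 18.8 and 15.2 to 28.3. The epithelium sums were 235 and 808 in mutants and 200.3 and 427 in controls, with miR-200c-5p and miR-203-5p at 0 in all libraries, and the eye sums were 652 and 6244 in mutants and 1932 and 3435 in controls. The part of these cells in the lower levels of let-7g-5p, let-7i-5p and let-7j was not tested. With the libraries scaled to equal counts of the red blood cell markers, the log2 fold change of let-7g-5p by edgeR's quasi-likelihood test was −1.66 (adjusted p 0.0269), and that of let-7j was −1.83 (adjusted p 0.0269), while the median of all tested miRNAs moved to −0.37.

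The direction did not depend on the processing, whereas the calls did. In each of the fits with all 4 libraries, 12 for each of let-7g-5p and let-7i-5p, or 11 in the case of let-7j, the fold change was negative. Relative to the median of all miRNAs in the same fit, the log2 fold changes ranged from −1.29 to −1.25 for let-7g-5p, from −1.82 to −1.77 for let-7i-5p and from −1.47 to −1.42 for let-7j. With total counts as the only scaling, the median of all miRNAs moved to 0.44 and no miRNA passed (0 by edgeR's quasi-likelihood test; at an unadjusted p under 0.05, 10 lower and 51 higher). let-7g-5p then had −0.84 and let-7i-5p −1.37. Of the alternatives with all 4 libraries, let-7g-5p passed in 7 of 11, let-7i-5p in 9 of 11 and let-7j in 6 of 10, for let-7j among them a minimum of 100 counts, which left fewer miRNAs to adjust over (log2 fold change −1.44, adjusted p 0.0443).

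**Figure D5:**
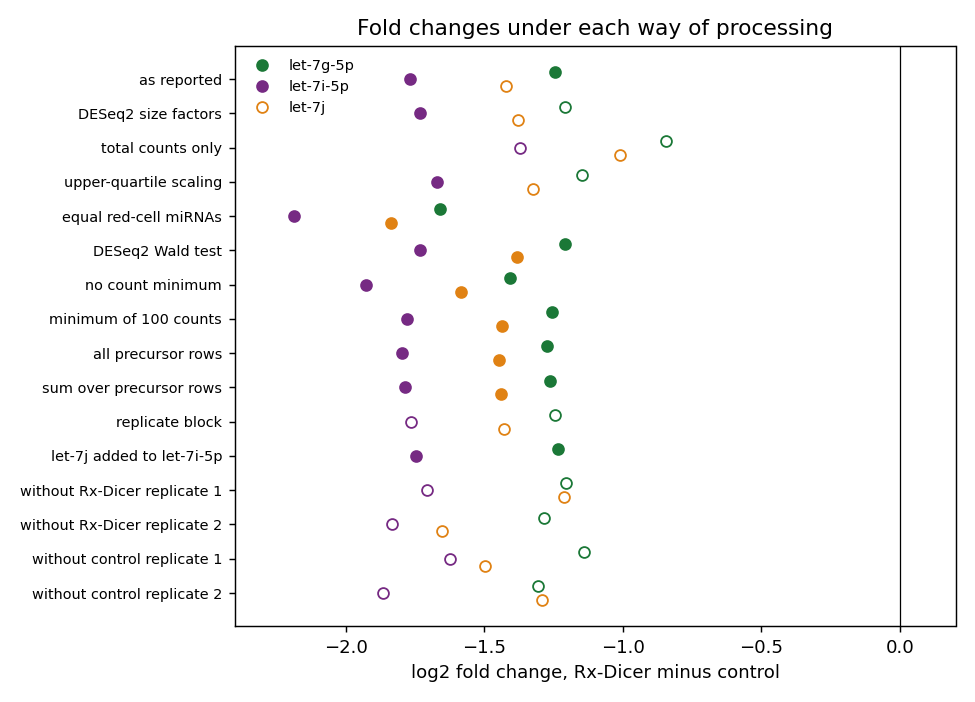
Log2 fold change (Rx-Dicer minus control) of let-7g-5p (green), let-7i-5p (purple) and let-7j (orange) as reported and under each other way of processing the same counts, fits without 1 library included (filled, adjusted p under 0.05). All points lie under 0, and all points of fits without 1 library are open.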

How the data were processed

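Small RNA was sequenced from 1 µg of total RNA per sample with 75-base single-end reads. The authors counted reads on mature miRNAs with miRDeep2 (mm10, miRBase version 22), and the deposited files hold raw counts for each mature miRNA on each of its precursors, not normalized. The version and mismatch settings of miRDeep2 are not given in the sources used here. Each table has 1211 lines for 1059 mature miRNAs, of which 65 have several lines; the line with the highest total was kept. Depth was 516517 to 1299067 counts per library, and the precision this gives is stated as 95% Wilson or exact binomial intervals, which cover counting error only.

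The 274 miRNAs that reached 10 counts in 2 or more libraries were tested with edgeR 4.0.16 (limma 3.58.1, R 4.3.3), by the quasi-likelihood test with TMM scaling, genotype as the only factor and Benjamini-Hochberg adjustment over all 274 (threshold 0.05). Scaled CPM are CPM of the TMM-scaled library. Ratios of 2 miRNAs were compared as log2 ratios of counts by exact permutation tests in R. Wilson intervals of shares were computed with Python 3.11.15 and scipy 1.17.1. The labels do not say whether libraries came from separate embryos or how many were pooled, so p-values measure only the spread between these samples, which may be technical. No 2 libraries held identical counts. The script was tested on simulated data before use.

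Named miRNAs were the 3 members, the other let-7 miRNAs and miR-98-5p, miRNA genes within 100 kb of a member, the 5 miRNAs most alike in profile to let-7g-5p and to let-7i-5p, and those next in control level; let-7g-3p and let-7i-3p were not analysed here. The ratio of let-7i-5p to let-7g-5p, the Irs2 windows and the markers are outside this rule. The members and lists were chosen with earlier results of these data known. Alternatives were DESeq2 size factors, total counts, upper-quartile scaling, scaling to red blood cell miRNAs, DESeq2's Wald test (DESeq2 1.42.0), other count minimums, other treatments of precursor lines, let-7j added to let-7i-5p, the replicate number as a block, and each library left out. Positions and neighbouring genes are from GENCODE M21 and RefSeq (GRCm38.p6); all 3 members matched. Hairpins were folded with ViennaRNA 2.7.2.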

Additional observations from a re-analysis of the deposited data

How the results depend on the processing

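All fits kept let-7g-5p, let-7i-5p and let-7j lower in mutants. The number of miRNAs called lower, 7 as reported, was 4 with DESeq2 size factors, 3 with upper-quartile scaling, 0 with total counts only, 11 with red blood cell scaling, 11 by DESeq2's Wald test, 14 without a count minimum, 11 over all precursor lines and 0 to 6 with 1 library left out (1 without Rx-Dicer library 1, 6 without Rx-Dicer library 2, 0 without either control). let-7g-5p lost its call with DESeq2 size factors (−1.21, adjusted p 0.0609 by edgeR), upper-quartile scaling (−1.15, 0.0719), total counts (−0.84, 0.188) and in fits without 1 library (−1.31 to −1.14). let-7i-5p lost it with total counts (−1.37, 0.173) and without 1 library (−1.87 to −1.63). let-7j gained one with red blood cell scaling (−1.83), DESeq2's Wald test (−1.38), no minimum (−1.58), a minimum of 100 counts (−1.44), all precursor lines (−1.45) and their sum (−1.44), and ranged from −1.65 to −1.21 without 1 library. Such a fit has a group of 1 library, which is assumed to vary like the others.

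The replicate numbers do not come with a shared litter or day in the labels, and deviations of same-numbered libraries correlated at 0.083 over 274 miRNAs, so they were not used as pairs. With the replicate block, 0 miRNAs passed by edgeR's quasi-likelihood test (at an unadjusted p under 0.05, 20 were lower and 4 higher), and let-7g-5p had −1.24, let-7i-5p −1.77 and let-7j −1.43, each with an adjusted p of 0.280. The block left the log2 ratios of counts at −0.52, 0.34 and −0.19. Without 1 library these were −0.56 to −0.48 for let-7i-5p to let-7g-5p, 0.11 to 0.56 for let-7j to let-7i-5p and −0.37 to −0.00054 for let-7j to let-7g-5p.

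Direction turned only for miRNAs that were not called. miR-135a-5p went to −0.14 with red blood cell scaling and −0.015 with the block, and ranged from −0.92 to 0.85 without 1 library. miR-181d-5p went to 0.059 with total counts. miR-449a-5p went to −0.21 and −0.11, with −1.20 to 0.85 without 1 library, and miR-145a-5p went to −0.031 with red blood cell scaling and ranged from −0.14 to 1.12. Of 239 values of the other 16 miRNAs under the alternatives, 184 kept direction and side of the threshold, 31 lost a call, 14 gained one and these 10 changed sign. The depth limits let-7j, with 64 to 292 counts per library, and let-7k, for which 0 counts in Rx-Dicer libraries 1 and 2 allow a share of up to 0.000461% and 0.000581%, taken as 3 counts of the total rather than as a Wilson limit.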
